A study of Mus musculus with 6 samples.

Results

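The genes described here encode 7 homeodomain transcription factors of the PBX, MEIS and PKNOX families, measured in sorted mouse LT-HSCs. These long-term hematopoietic stem cells sit in the marrow and can rebuild every blood lineage. The members were picked by gene symbol, Pbx2, Pbx3, Meis1, Meis2, Meis3, Pknox1 and Pknox2, which gave 7 of the 47561 rows of the count tables. They were picked with the expression values of these libraries known, so their differences between the groups are given as a description. How many members passed the thresholds of the tests over all genes is stated once, and nothing is read from it. The control group is labelled wild type and the other group Piezo1 knockout (KO), with 3 total RNA libraries each from sorted marrow LT-HSCs. Piezo1 encodes a calcium-permeable channel that opens under mechanical force. The labels give no strain, age or sex of the mice, and no allele or Cre driver, nor whether each library is from its own mouse, so any p-value measures only the spread between these samples. The genotype entry reads Piezo1 knockout for KO replicate 1, Piezo2 knockout for KO replicate 2 and Piezo3 knockout for KO replicate 3, whereas all 3 titles say Piezo1 KO, and the title set the group. The tables hold read counts for each gene, given below as CPM, which are counts scaled to the adjusted library size.

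PBX, MEIS and PKNOX proteins belong to the TALE class, named after a 3-amino-acid loop extension in the DNA-binding homeodomain. PBX proteins bind DNA together with HOX proteins, and MEIS or PKNOX (also called PREP) proteins pair with PBX through their N-terminal parts, so that the factors act as dimers and trimers. In blood, Meis1 is required for the maintenance of stem cells and for megakaryocyte formation, and together with Hoxa9 it drives leukemia in mice.

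The division between the PBX members and the others can be read in the DNA that codes for the recognition helix of the homeodomain. The following coding runs of 24 bases start at the same conserved position of that helix in each member and were taken from the transcript with the longest coding sequence in GENCODE M21 (build GRCm38). Capitals mark a codon that separates PBX from MEIS and PKNOX members, and other codons of the run separate them as well.
Meis1: tggtttATTaatgcccggagaaga
Meis2: tggtttATCaatgccagaagaaga
Meis3: tggtttATTaatgcccggagacga
Pknox1: tggttcATCaacgcgagaagacga
Pknox2: tggttcATCaatgccaggaggcgc
Pbx2: tggttcGGTaacaagcgaattcgc
Pbx3: tggtttGGCaacaaacgaatcagg
The marked codon was ATT or ATC in the MEIS and PKNOX members and GGT or GGC in the PBX members. Meis1 and Meis3 shared 23 of 24 bases, Meis1 and Meis2 21, Pbx2 and Pbx3 18, and Meis1 and Pbx2 12. Meis2 and Pknox1 shared 20, as did Meis2 and Meis3, so shared bases did not divide MEIS from PKNOX members. Despite this kinship, the longest coding transcripts of Pbx2, Pbx3, Meis2, Meis3 and Pknox2 held no run of 50 bases that another gene's annotated transcript also held. Of the 50-base runs of the Meis1 and Pknox1 transcripts, 0.729% and 2.52% were found in other genes. Coordinates below are those of the same annotation, matched by symbol.

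The libraries held between 59435258 and 64653956 counts. No gene of the 16022 tested passed an adjusted p under 0.05 in edgeR's quasi-likelihood test (lowest adjusted p 0.172), so the share of all tested genes past that threshold was 0%. At an unadjusted p under 0.05 the share was 11.0%, 5.44% of genes being higher and 5.59% lower in KO. Piezo1 itself lay between 7.02 and 24.3 CPM in control and between 4.28 and 9.46 CPM in KO libraries, and the lowest control value, that of control replicate 2, was below KO replicates 2 and 3. The library labelled control replicate 2 thus goes against its label in Piezo1, and values without it are given beside the members. Over all genes it was closest to control replicate 1, with a chi-square per gene of 203 (lower is closer). With the KO libraries it had 312 to 330. Control replicate 3 had 364 and 376 with the other controls and 258 to 321 with the KO libraries. What sets these libraries apart was not tested. All 10 markers of hematopoietic stem cells that were looked up had counts in all 6 libraries, with a summed level of 927 to 1270 CPM in control and 812 to 1077 CPM in KO. Single markers of this list went different ways: Ly6a (Sca-1) averaged 327 ± 44.7 CPM in control and 123 ± 72.9 CPM in KO, with no overlap, Procr 48.7 ± 23.2 and 13.8 ± 11.4 CPM, with overlap, and Kit 185 ± 68.4 and 320 ± 25.8 CPM, with no overlap (SD, n = 3 each). Summed markers of megakaryocytes ranged from 809 to 1086 CPM in control and from 1754 to 2572 CPM in KO, and those of erythroid cells from 474 to 4101 and from 7202 to 24743 CPM. Markers of granulocytes ranged from 176 to 11728 CPM in control, where replicate 3 was the highest, and from 120 to 1155 CPM in KO. In bulk RNA, fewer cells of a type and less RNA per cell cannot be told apart, and the part of these markers in the values below was not tested.

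Of the 7 members, 4 had counts in all 6 libraries, and 6 passed the filter on low counts. Meis1 was by far the most abundant. Per kilobase of annotated exon, its level averaged 15.96 ± 3.48 CPM per kilobase (SD, n = 6, both groups), and its lowest library, at 10.6, lay above every library of every other member. Pknox1 followed with 3.44 ± 0.874, Pbx2 with 3.29 ± 2.01 and Pbx3 with 1.54 ± 0.614 CPM per kilobase. Pknox1 and Pbx2 overlapped in their ranges over the libraries, as did Pbx2 and Pbx3. Meis3 averaged 0.362 ± 0.348 and Meis2 0.0605 ± 0.0685 CPM per kilobase, and the ranges of these neighbours overlapped too. The order was the same per kilobase of the longest coding transcript, where Meis1 averaged 50.2 ± 10.9. On the exon scale, Meis1 made up between 52.8% and 72.5% of the summed level of the 7 members in a library.

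**Figure D1:**
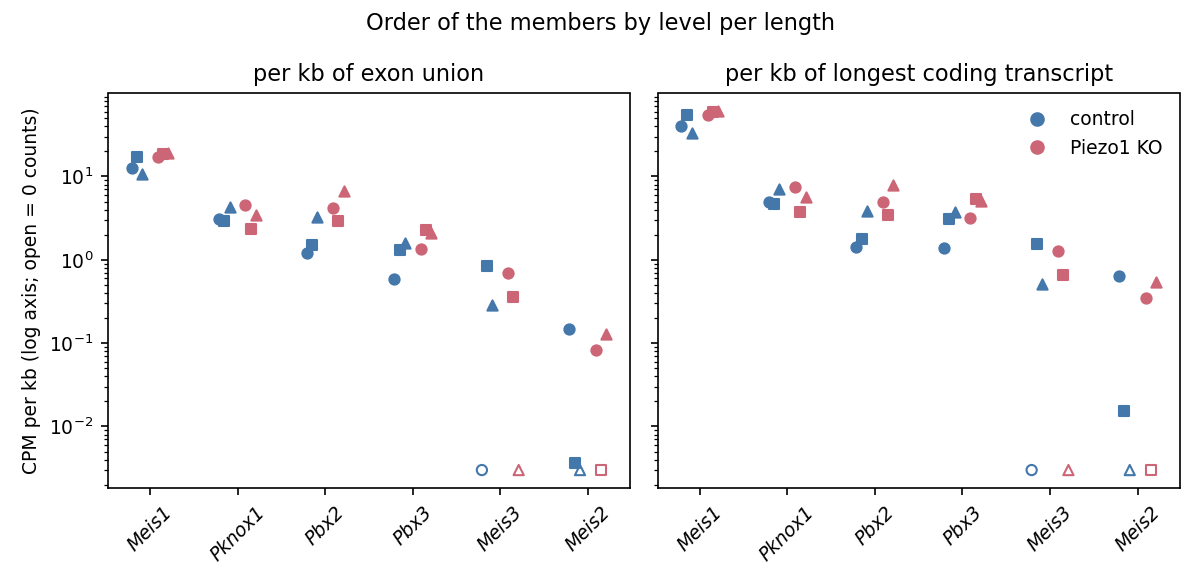
Level of each member in each library, as CPM per kilobase on a log axis, with lengths from the exon union (left) or from the longest coding transcript (right). Each point is 1 library, open points at the lower edge had 0 counts, and Pknox2 (0 in all libraries) is not drawn. Meis1 lies above all other members in every library, from 10.6 CPM per kilobase of exon upwards.

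Meis1, which lies on chromosome 11 (GRCm38, chr11:18879817-19018985, minus strand), is the member best known in stem cells. Its level was 134, 182 and 112 CPM in the control replicates, in order, and 181, 198 and 202 CPM in the KO replicates. The library labelled control replicate 2 reached the level of the KO libraries, so the groups overlapped by a narrow margin, and control replicates 1 and 3 lay below all others. The group means were 143 ± 35.8 CPM in control and 194 ± 11.1 CPM in KO (SD, n = 3 each), which is 0.44 (SE 0.21) as a log2 fold change. With the library labelled control replicate 2 left out, the groups no longer overlapped and the log2 fold change came to 0.63. Without control replicate 3, which stood apart in granulocyte markers, it came to 0.29. Of all tested genes, 10.7% had every KO value above every control value, and 18.6% did so without control replicate 2.

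The control values of Meis1 were more scattered than the KO values, a difference that was not tested, with a coefficient of variation of 25.1% in control and 5.72% in KO, where counting alone gives 1.06% and 0.922%. The difference in level was sensitive to transcript length. Once each library's trends with length and GC content had been taken out, the Meis1 log2 fold change was 0.020, and with the length trend alone removed it was -0.049, against 0.41 with the GC trend alone removed. An antisense gene inside the locus, Gm16141, shares 0 exonic bases with Meis1 and ranged from 63.5 to 75.5 CPM in control and from 54.0 to 104 CPM in KO. In GENCODE, Gm37818 on the same strand shares 1029 exonic bases with Meis1, and the antisense gene Gm16140 shares 896. Neither symbol was among the counted rows, so it is not known whether either was counted as a gene of its own. Reads in these stretches cannot be told apart here, and the strand used in counting is not given.

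The other members of the MEIS family were rare. Meis2 (chr2:115863064-116065839, minus strand), a developmental relative of Meis1, had 109, 3 and 0 counts in control and 59, 0 and 96 counts in KO. Meis3 (chr7:16175090-16186504, plus strand) had 0, 182 and 50 counts in control and 131, 68 and 0 in KO. Each gene was thus present in some libraries of both groups and at 0 in others, and a count of 0 allows up to 0.0440 to 0.0539 CPM, depending on the library. The mean levels of Meis2 were 0.614 ± 1.03 CPM in control and 0.843 ± 0.780 CPM in KO, and those of Meis3 1.19 ± 1.36 and 1.11 ± 1.10 CPM (SD, n = 3 each). For Meis2, the coefficient of variation was 167% in control and 92.5% in KO, where counting alone gives 16.4% and 13.9%. Both genes had counts in control replicate 2 and in KO replicate 1. The sign of each difference depended on single libraries: the log2 fold change of Meis2 was 0.46 (SE 2.30) and ran from -0.35 without KO replicate 3 to 5.11 without control replicate 1, with -0.14 without the library labelled control replicate 2, and that of Meis3 was -0.10 (SE 2.21) and became 1.30 without the library labelled control replicate 2.

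**Figure D2:**
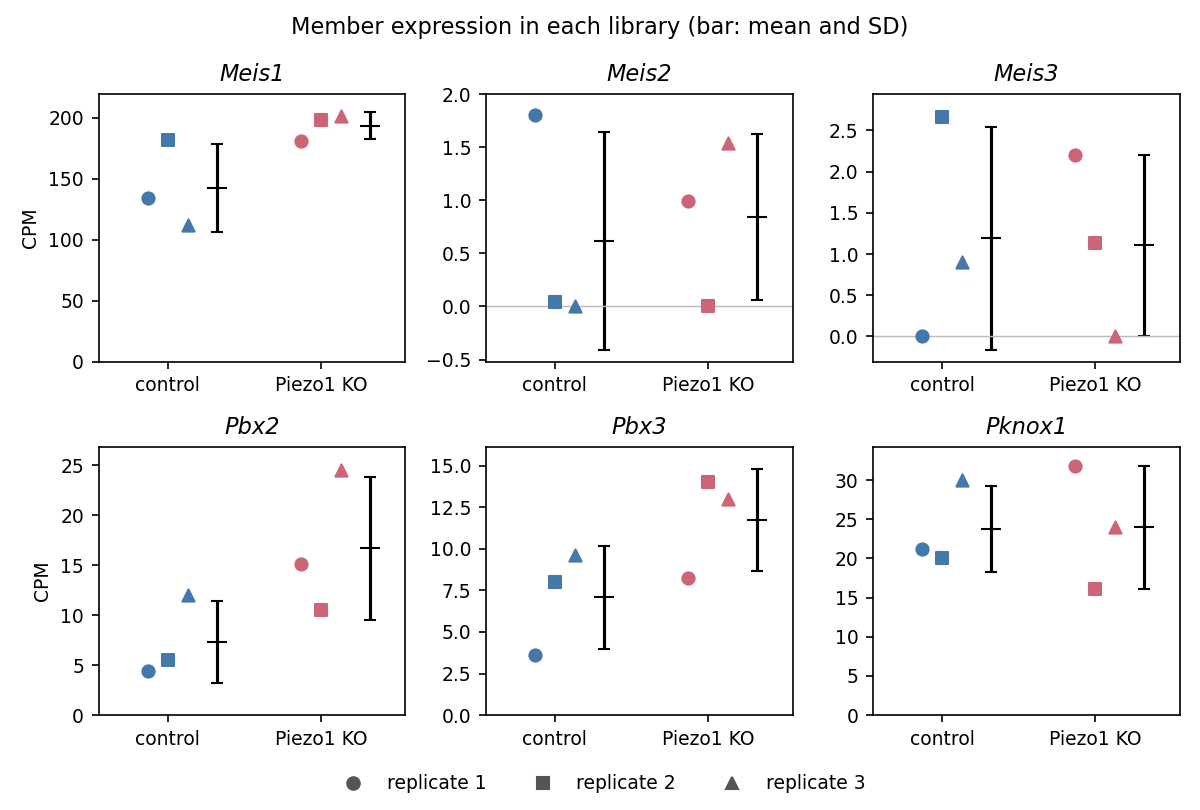
CPM of the 6 detected members in each library (blue control, red Piezo1 KO; marker shape gives the replicate), with the mean and SD of each group in black. The groups overlap in all 6 panels, and in Meis1 the overlap rests on control replicate 2 at 182 CPM.

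Pbx2 (chr17:34591266-34597400, plus strand) encodes a broadly expressed PBX protein. Control replicates 1 to 3 gave 4.41, 5.48 and 12.0 CPM, against 15.1, 10.5 and 24.5 CPM for KO. KO replicate 2 lay below control replicate 3, and the other KO libraries lay above all control libraries. The means were 7.29 ± 4.09 and 16.7 ± 7.13 CPM (SD, n = 3 each), and the log2 fold change of 1.20 (SE 0.54) was the largest among the members detected in all libraries. It was 1.75 without control replicate 3, 1.01 without the library labelled control replicate 2 and 0.80 without KO replicate 3, and 1.10 after the length and GC trends were removed. The gene next to Pbx2 on the same strand, Gpsm3, which encodes a regulator of G-protein signalling, shares 227 exonic bases with it in GENCODE. Gpsm3 gave 3.04, 7.25 and 6.06 CPM for control against 11.96, 12.4 and 17.4 CPM for KO, with no overlap. Reads in the shared stretch cannot be told apart, and their part in the Pbx2 values was not tested.

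Pbx3 (chr2:34171457-34373142, minus strand), a PBX factor with a role in HOX-driven leukemia, gave 3.63, 8.0003 and 9.62 CPM for control replicates 1 to 3, against 8.22, 13.98 and 12.97 CPM for KO. Control replicate 1 was the lowest library and KO replicate 1 lay within the control range. The means were 7.08 ± 3.10 and 11.7 ± 3.08 CPM (SD, n = 3 each), with a log2 fold change of 0.73 (SE 0.50) that was 0.41 without control replicate 1, 0.81 without the library labelled control replicate 2 and 1.01 without control replicate 3. The ratio of Pbx2 to Pbx3 CPM was 1.21, 0.685 and 1.24 in control and 1.83, 0.751 and 1.89 in KO. In both groups replicate 2 was the one library with more Pbx3 than Pbx2.

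Pknox1 (chr17:31564734-31607693, plus strand), also called Prep1, encodes a PBX partner that competes with MEIS proteins for PBX. Control replicates 1 to 3 gave 21.2, 20.02 and 30.02 CPM, against 31.8, 16.1 and 24.0035 CPM for KO. The 2 groups spanned nearly the same range, with means of 23.7 ± 5.46 and 23.98 ± 7.87 CPM (SD, n = 3 each) and a log2 fold change of 0.014 (SE 0.34). Its sign changed under 11 of 16 alternative settings, between -0.26 and 0.23, and it was -0.11 without the library labelled control replicate 2. An antisense gene, AC166172.4, shares 155 exonic bases with it in GENCODE. Its paralog Pknox2 (chr9:36890982-37147407, minus strand) had 0 counts in all 6 libraries and was not detectable at this depth, which allows up to 0.0539 CPM in the least sensitive library.

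**Figure D3:**
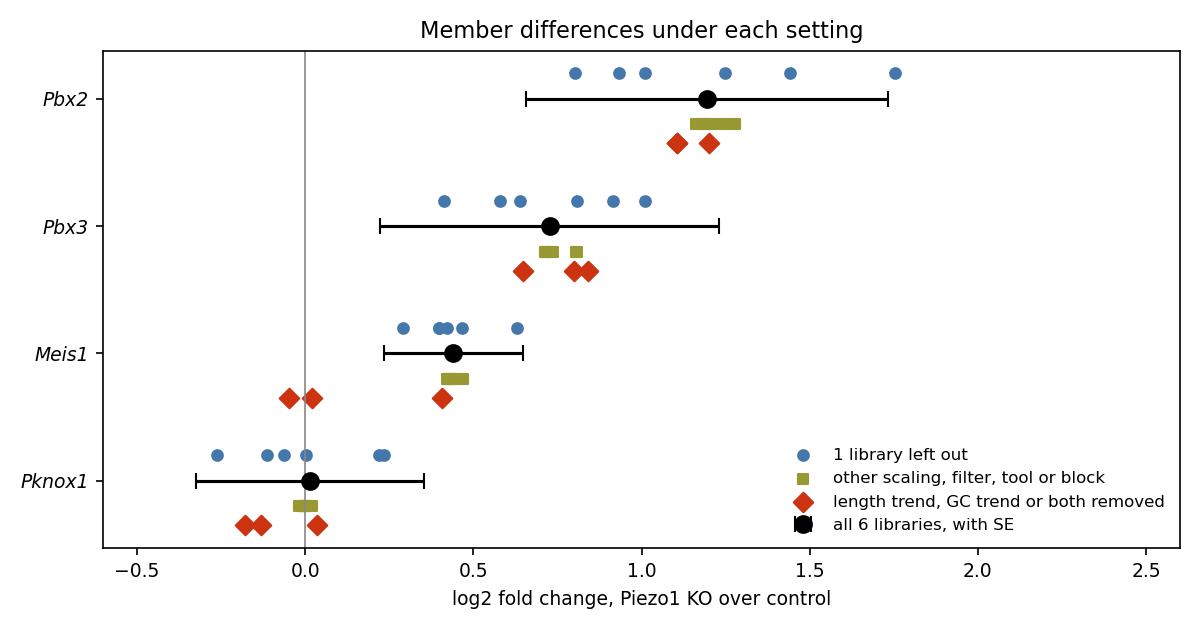
Log2 fold change of KO over control for the 4 members with counts in all libraries. Black points and bars give the estimate from all 6 libraries with its SE, blue points the values with 1 library left out, olive squares other scalings, filters, tools and the replicate block, and red diamonds the values after length trend, GC trend or both were removed. Pbx2 and Pbx3 stay above 0 in all settings drawn, Meis1 comes to between -0.049 and 0.41 in the red diamonds, and Pknox1 lies on both sides of 0.

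Of the 6 tested members, 0 passed the adjusted threshold in edgeR or DESeq2. Over all genes, 0% of the 16022 tested did in edgeR, and 3.55% of the 14920 given an adjusted p did in DESeq2. At an unadjusted p under 0.05 in edgeR there were 0 of 6 members, beside 11.0% of all genes. The groups did not overlap in 0 of 6 members, beside 19.5% of all genes (10.7% higher and 8.76% lower in KO). The log2 fold change was positive in 5 of 6, beside 52.2% of all genes. In limma-voom, 2 of 6 members (Pbx2 and Meis1) had an unadjusted p under 0.05, beside 13.9% of all genes. In DESeq2 it was 1 of 6 (Pbx2), beside 14.2% of all genes. As the members were picked with these values known, nothing is read from these counts.

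The promoters of Meis1 and Pbx2, the most abundant member and the one with the largest difference among those seen in all libraries, are shown for their base composition. They give the 250 bases before a RefSeq start (GRCm38.p6), with CCAAT boxes (CCAAT) and GC boxes (GGGCGG) on either strand in capitals.
Meis1, chr11:19018970-19019219, minus strand: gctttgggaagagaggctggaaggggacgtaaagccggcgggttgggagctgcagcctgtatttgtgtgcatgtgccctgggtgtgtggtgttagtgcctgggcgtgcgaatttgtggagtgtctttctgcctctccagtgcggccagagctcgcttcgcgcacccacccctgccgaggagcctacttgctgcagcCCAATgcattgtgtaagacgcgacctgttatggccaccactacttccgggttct
Pbx2, chr17:34592009-34592258, plus strand: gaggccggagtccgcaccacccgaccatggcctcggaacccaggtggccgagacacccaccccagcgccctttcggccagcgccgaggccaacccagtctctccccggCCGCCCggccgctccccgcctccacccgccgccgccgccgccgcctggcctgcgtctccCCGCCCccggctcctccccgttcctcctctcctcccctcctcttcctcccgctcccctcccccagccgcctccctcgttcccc
With the 50 bases after the start included, the window of Pbx2 was 76.0% G and C and held 29 CpG pairs and 2 GC boxes, and that of Meis1 was 58.3% G and C, with 15 CpG pairs and 1 CCAAT box. The median over all 32851 promoter windows was 52.7% and 7 CpG pairs, and 35.7% of them held a GC box and 37.4% a CCAAT box. The table held windows for Meis2 and Meis3 as well, with 13 and 21 CpG pairs. None of these 4 windows held the PBX-HOX type motif TGATTNAT or the MEIS and PKNOX type motif TGACAG on either strand, which 3.22% and 19.2% of all windows held. A match describes letters and not a binding site. Tested genes with TGACAG in a promoter window (2192 genes) had a median log2 fold change of 0.054 and those without (8940 genes) 0.035. For TGATTNAT the medians were -0.020 (201 genes) and 0.040 (10931 genes).

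HOX proteins are the DNA-binding partners of PBX and MEIS. Of 19 Hoxa and Hoxb genes listed, 14 were tested, and 3 (Hoxa11, Hoxb1 and Hoxb8) had 0 counts in all libraries. At an unadjusted p under 0.05, 1 was higher and 0 were lower in KO (5.44% and 5.59% of all genes), and 0 passed the adjusted threshold. The median log2 fold change was 0.34, with 10 positive and 4 negative values, beside 0.034 over all tested genes. The 1 gene was Hoxa4, listed at 0.182, 0 and 0 CPM for the control replicates against 2.16, 2.99 and 1.48 CPM for KO (edgeR quasi-likelihood adjusted p = 0.411). Its counts were 11, 0 and 0 in control and 129, 180 and 92 in KO. It passed the filter on low counts only through the KO group, where it is high, so nothing is read from its call. Hoxb6 passed that filter only through KO as well, with counts of 0, 31 and 0 in control and 34, 21 and 62 in KO. Both genes are among the 10 positive values, so nothing is read from the signs or the median of this list. The list's count of 1 became 0 without control replicate 3 and without any 1 of the KO replicates. It was also 0 with no filter on low counts and with a filter of 5 CPM in 3 libraries. Hoxa10, a stem and progenitor cell Hox gene, gave 10.7, 11.7 and 7.10 CPM for control against 14.4, 17.4 and 13.9 CPM for KO, with no overlap between the groups. Hoxb3 averaged 2.52 ± 1.30 CPM in control against 5.71 ± 2.52 CPM in KO, and Hoxb6 0.151 ± 0.262 against 0.638 ± 0.328 CPM (SD, n = 3 each). Hoxa9, given for its role as the partner of Meis1 and not by the naming rule, averaged 34.9 ± 9.65 CPM in control and 43.0 ± 16.001 CPM in KO. The ratio of Meis1 to Hoxa9 CPM was 4.61, 3.95 and 3.77 in control and 5.95, 5.26 and 3.30 in KO, so that KO replicate 3 had the lowest and the other KO libraries the highest ratios.

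Of 9 listed TALE relatives and the PBX-binding protein gene Pbxip1, only Tgif1, Tgif2 and Pbxip1 were tested, and Irx1 to Irx6 and Mkx had 0 counts in all libraries. Tgif1 and Tgif2 encode repressors of the TALE class that act in TGF-beta signalling. Tgif1 averaged 38.3 ± 8.58 CPM in control and 28.4 ± 4.97 CPM in KO, and Tgif2 17.0 ± 6.04 and 24.4 ± 6.98 CPM (SD, n = 3 each). Pbxip1 gave 5.86, 12.2 and 12.7 CPM for control against 17.1, 11.2 and 22.9 CPM for KO. Its groups overlapped through KO replicate 2, the library that was also the lowest KO library for Pbx2. At an unadjusted p under 0.05 there were 0 of these 3 genes.

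Earlier work on blood cells linked 15 listed genes to Meis1 or to Hoxa9 with Meis1, and 14 of them were tested. At an unadjusted p under 0.05, 4 of 14 were higher and 0 lower in KO, beside 5.44% and 5.59% of all genes, and in edgeR 0 passed the adjusted threshold. The list was chosen with earlier results of these data known. The median log2 fold change was 0.20, with 10 positive and 4 negative values. Among the positive ones, Ccl3 passed the filter on low counts only through KO, with counts of 0, 50 and 0 in control and 68, 61 and 93 in KO. Nothing is read from the signs or the median of this list. The 4 genes with an unadjusted p under 0.05 were Pf4, Sox4, Bcl2 and Erg. Pf4, platelet factor 4 and itself a megakaryocyte marker, had a log2 fold change of 1.29 (SE 0.21, adjusted p = 0.255 in edgeR's quasi-likelihood test). Sox4, a transcription factor of progenitors, gave 35.04, 43.6 and 41.8 CPM for control against 68.9, 73.8 and 106 CPM for KO, with no overlap (adjusted p = 0.255). Bcl2, an inhibitor of cell death, gave 19.7, 46.7 and 48.1 CPM for control against 68.8, 62.8 and 98.2 CPM for KO (adjusted p = 0.397). Erg, an ETS factor of stem cells and megakaryocytes, averaged 18.4 ± 3.27 CPM in control and 30.7 ± 8.47 CPM in KO (SD, n = 3 each, adjusted p = 0.449). Its groups overlapped, with control replicate 2 (22.1 CPM) above KO replicate 1 (21.0 CPM). DESeq2 called 2 of 14 after adjustment, Pf4 and Sox4, beside 3.55% of the 14920 genes to which it gave an adjusted p. Without KO replicate 3 the count of 4 became 2, and without control replicate 2 it became 5.

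**Figure D4:**
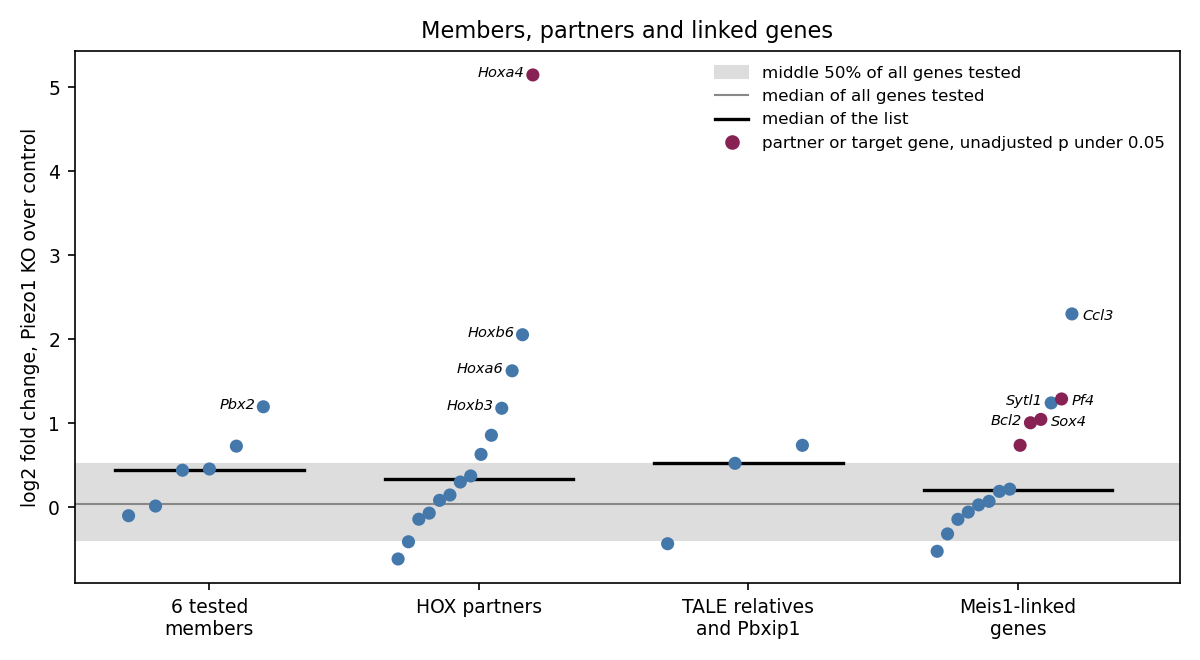
Log2 fold changes of KO over control for the tested members, HOX partners, TALE relatives with Pbxip1, and Meis1-linked genes, each point 1 gene and each black line the list's median. The grey band holds the middle 50% of all tested genes, and purple points had an unadjusted p under 0.05. The list medians of 0.34 (14 genes), 0.52 (3 genes, 1 of them negative) and 0.20 (14 genes) lie above the median of all genes, 0.034. Those of 0.34 and 0.20 include genes that passed the filter on low counts only through KO, so nothing is read from them.

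The genes whose log2 CPM followed each member most closely over the 6 libraries were looked up among 9771 genes averaging at least 5 CPM. For Meis1 these were Wdr81, Abhd8 and Ptk2b, with Pearson r of 0.994, 0.991 and 0.989. Ptk2b, a calcium-activated tyrosine kinase gene, gave 44.8, 84.7 and 34.2 CPM for control against 69.6, 92.4 and 92.5 CPM for KO. Its high value in control replicate 2 follows from its choice by likeness to Meis1 and says nothing more about that library. For Pbx2 they were Tpcn1, the gene of an endolysosomal cation channel, Adipor2 and Hdac7 (r of 0.998, 0.996 and 0.991). For Pbx3 they were Tnrc6b, a gene of microRNA silencing, Cggbp1 and Sh3bp5l (0.996, 0.993 and 0.991), and for Pknox1 they were Dlg1, Noa1 and Aplp2 (0.993, 0.980 and 0.975). With 6 libraries and so many candidates, high values arise easily: 215 genes had r above 0.9 with Meis1, 311 with Pbx2, 389 with Pbx3 and 30 with Pknox1. The members did not follow each other as closely. Pbx2 and Pbx3 had r = 0.74 over the libraries and 0.52 after the group means were removed, and Pbx2 and Pknox1 had 0.43 and 0.67, the highest value among the 6 pairs after the group means were removed. Meis1 and Pbx2 had 0.35 and -0.45, and Meis1 and Pknox1 -0.41 and -0.59. These values share libraries and depth and are descriptions over 6 libraries.

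**Figure D5:**
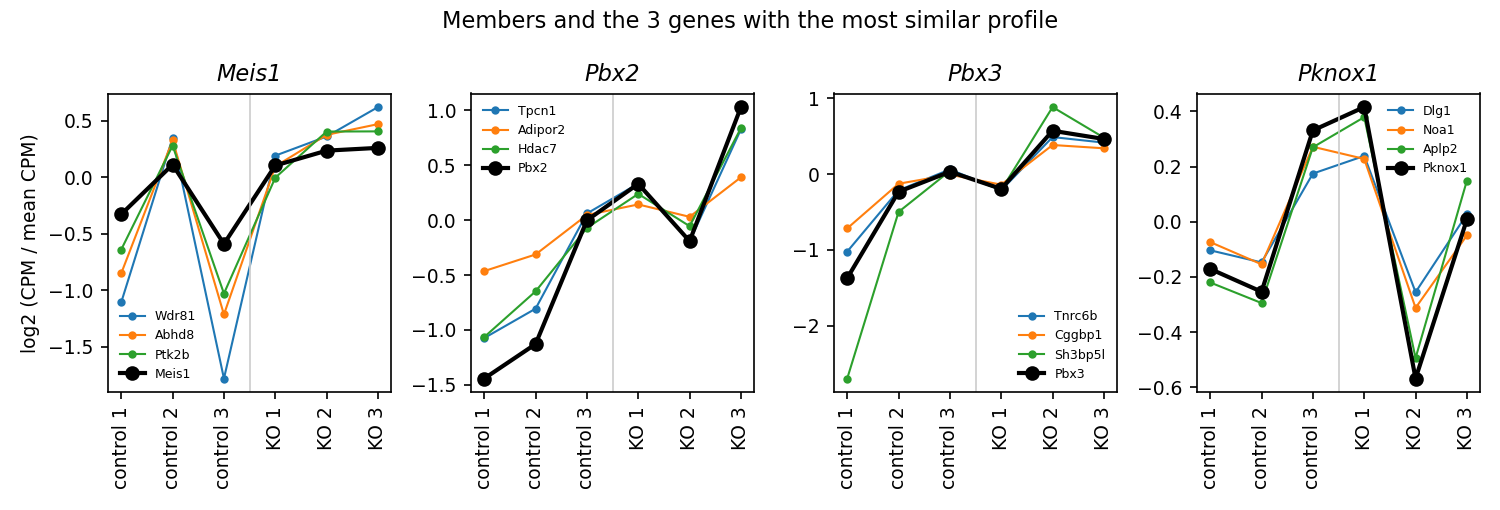
Log2 of CPM relative to the gene's mean over the 6 libraries, for 4 members (black) and the 3 genes with the highest Pearson r to each. Lines join the libraries only to guide the eye, and the grey line separates control from KO. The 3 genes were picked by this likeness, so the high control replicate 2 of Meis1 recurs in them by that choice. Pbx2 is lowest in control replicates 1 and 2.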

How the data were processed

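Per the labels' protocols, TRIZOL was used for extraction and a TruSeq RNA Sample Prep Kit for the libraries, with no word on strand. Each library has 1 deposited table of raw, whole-number counts by gene. The tools in the submitters' processing notes are HISAT2 2.1, featureCounts 1.6.4, cutadapt 1.16.5, bcl2fastq 2.19 and DESeq2 2.11.40.6, the build is mm10, and their settings are not given in the sources used here. Some row identifiers look like those of a transcript assembler, and such gene models may have been built from the reads.

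The quasi-likelihood test of edgeR 4.0.16 (R 4.3.3) compared the groups in all 6 libraries after filterByExpr and TMM scaling, with Benjamini-Hochberg adjustment over 16022 genes and a threshold of 0.05. The SE is the absolute log2 fold change divided by the root of F. CPM are counts over the TMM-scaled library total, and log2 CPM used a prior count of 2. A count of 0 allows up to 3 counts, which covers counting error only. Levels per kilobase used GENCODE M21 lengths, which need not be the submitters' models. Promoter sequences came from RefSeq (GRCm38.p6), with entries for 4 of 7 members.

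The members and gene lists were chosen with earlier results of these data known. Named were the members, Piezo1, the 3 genes most correlated with each member averaging at least 5 CPM, and up to 4 genes per list with the smallest p. No 2 libraries agreed within sampling noise (chi-square per gene at least 132). On counts simulated for 16022 genes of this comparison, 5, 22, 39 and 41 of 50 genes changed 2-, 4-, 8- and 16-fold were recovered, with 3 unchanged genes called. The changed genes were drawn only from those averaging at least 5 CPM, so this recovery does not cover rarer genes such as Meis2 and Meis3. Alternatives were other scalings and filters, DESeq2 1.42.0, limma-voom (limma 3.58.1), a block on the replicate number, leaving out each library and, added after the data were seen, removal of length and GC trends (89.4% of genes matched).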

Additional observations from a re-analysis of the deposited data

How the results depend on the processing

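Under DESeq2, 244 genes were higher and 286 lower at an adjusted p under 0.05, where edgeR called 0 and 0. With a filter of 5 CPM in 3 libraries edgeR called 1 lower, and with 1 library left out between 0 and 1 higher and 0 lower. Without adjustment, p was under 0.05 for 871 genes higher in KO (562 without KO replicate 3 to 1339 without control replicate 3 when 1 library was left out) and for 896 lower (573 without control replicate 1 to 1299). No cause of these differences was tested.

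The log2 fold change of Meis1 was 0.020 after removal of the length and GC trends and -0.049 after removal of the length trend alone, and 0.29 to 0.63 with 1 library left out. That of Meis2 ranged from -0.35 to 5.11 with 1 library left out. The log2 fold changes of Pbx2 (0.80 to 1.75) and Pbx3 (0.41 to 1.01) and the 3 list medians kept their sign in all 16 alternatives run. Pknox1 changed sign in 11, Meis3 in 3 of 15 and Meis2 in 4 of 15 (a filter of 5 CPM removed both genes). Though it kept its sign, the median of the Meis1-linked genes fell from 0.20 to 0.062 with the length trend alone removed. It was 0.13 with the length and GC trends removed.

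With the replicate number as a block, 0 genes passed after adjustment, and 835 (higher) and 762 (lower) had an unadjusted p under 0.05. The log2 fold change of Pbx2 was then 1.25 and that of Meis3 -1.11. Deviations of same-numbered libraries correlated at 0.038, 0.016 and 0.033, and those of differently numbered ones at -0.039 to 0.0079. Each library thus correlated best with its own number, as a hint from the data only. Values this small cannot decide whether the numbers pair the samples, and the labels do not say. Depth limits Pknox2, and Meis2 and Meis3 in the libraries with 0 to 3 counts.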
